A study of Mus musculus with 15 samples.

Results

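The mRNAs of the cytosolic ribosomal proteins were examined in RNA recovered by immunoprecipitation from ST2 cells, a mouse stromal cell line. They were chosen by gene symbol, as genes named Rps or Rpl followed by a number, with paralogue suffixes allowed, plus Rpsa, Rplp0, Rplp1 and Rplp2, and without symbols marked as pseudogenes. This gave 85 of the 25239 genes in the deposited table, 33 of the small subunit and 52 of the large subunit. Of these, 84 passed the filter on low counts; Rpl3l did not.

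All cells were of this line and were given IL-17 (200 ng/mL) or medium alone, for 3 hours in either case, and were then fixed with 1% formaldehyde. RNA was pulled down from the lysates through Arid5a, which binds RNA and belongs to the AT-rich interaction domain family, or with a mouse IgG2b control antibody, and libraries were made with a SMART-Seq Stranded kit. The 4 groups were IgG in medium (n = 4), Arid5a in medium (n = 4), IgG with IL-17 (n = 3, numbered 2, 3 and 4) and Arid5a with IL-17 (n = 4), which makes 15 libraries. The study asked which transcripts Arid5a binds; a library of unprecipitated RNA was not analysed here, so a change in cellular RNA and a change in recovery cannot be told apart, nor can fewer cells and less RNA per cell.

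Ribosomal proteins are made in matched amounts from mRNAs that are among the most abundant of a growing cell. Most vertebrate genes of this family start transcription at a C followed by a run of pyrimidines, the terminal oligopyrimidine (TOP) motif, through which their translation is held back when growth signals fall. Elongation factors, the poly(A)-binding protein Pabpc1 and several host transcripts of small nucleolar RNAs carry the same motif. The proteins Rplp0, Rplp1 and Rplp2 form the stalk of the large subunit, to which elongation factors bind, and Rpsa, of the small subunit, is also known as a laminin receptor.

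The region around the annotated start is shown for members that were higher with IL-17 in the Arid5a precipitate (Rpl35, Rpl34, Rps26, Rpl26, Rpl27) and for members that were not (Rps7, Rpl41). Each line gives 40 bases before the RefSeq start and 20 from it on, on the gene's strand and in the build GRCm38.p6, with the longest run of C and T in capitals.
Rpl35, chr2:39005112-39005171, minus strand: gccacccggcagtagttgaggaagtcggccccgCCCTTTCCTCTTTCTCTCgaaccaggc
Rpl34, chr3:130730318-130730377, minus strand: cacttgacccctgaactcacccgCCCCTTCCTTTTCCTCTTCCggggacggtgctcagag
Rps26, chr10:128626487-128626546, minus strand: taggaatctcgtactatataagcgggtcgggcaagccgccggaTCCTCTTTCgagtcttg
Rpl26, chr11:68901526-68901585, plus strand: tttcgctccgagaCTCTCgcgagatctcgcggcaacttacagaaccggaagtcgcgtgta
Rpl27, chr11:101442205-101442264, plus strand: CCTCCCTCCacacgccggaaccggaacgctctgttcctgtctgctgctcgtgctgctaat
Rps7, chr12:28635934-28635993, minus strand: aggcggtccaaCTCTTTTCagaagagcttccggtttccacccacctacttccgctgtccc
Rpl41, chr10:128549149-128549208, minus strand: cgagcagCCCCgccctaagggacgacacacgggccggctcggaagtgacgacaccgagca
The run was 20 bases in Rpl34 and 18 in Rpl35, 9 in Rps26 and Rpl27, 8 in Rps7, 5 in Rpl26 and 4 in Rpl41, and its place relative to the start differed between the genes. A second annotated start of Rpl34, with a run of 8, is not shown. Run lengths in these few windows do not stand for the members at large. Calls by such runs over all members with a window are given below.

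RefSeq promoter windows of 300 bases, from 250 before the start to 50 from it on, were found for 64 of the 85 members (76 windows) and were set beside all 32851 windows of the table. A C at the annotated start followed by 4 or more C or T stood in 14 member windows (18.4%) and in 2.51% of all windows. A C followed by 7 or more C or T within 30 bases of the start stood in 37 (48.7%) against 18.2%. The hexamer CTCTTT, or else the hexamer CTTTCC, or else the hexamer CTTCCT, on the sense strand within 30 bases of the start and overlapping such runs, stood in 29 (38.2%) against 9.03%. CCGGAAG, on either strand, stood in 27 (35.5%) against 8.86%, AAGATGGC, on either strand, in 8 (10.5%) against 2.75%, and TATAAA within 50 bases before the start in 1 (1.32%) against 2.63%. These are matches of letters within an annotated window, not mapped start sites.

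Levels per length are given as deposited FPKM, which scales fragments to gene length and library size. The mean FPKM over the 15 libraries ran from 3.09 to 10136 among the 84 members, with a median of 922, which lay at the 98.0th percentile of the 5376 well-expressed genes (average log2 CPM of at least 5, where CPM is counts scaled to the library total). In 78 members the mean exceeded 100. The median was 930.1 for the small and 913 for the large subunit. The 4 highest means belonged to Rpl23a (10136 ± 1240, SD, n = 15), Rps23 (7805 ± 1795), Rps26 (6640 ± 4226) and Rpl41 (6442 ± 889). These SDs pool the 4 groups, so they do not tell whether neighbouring members differ within a group. In every medium library Rpl41 lay above Rps26, and in every Arid5a IL-17 library Rps26 lay above Rpl41. In IgG IL-17 their order varied between libraries. Of the 4 members with the highest means Rps26 had the widest range, from 3481 to 18144.

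The lowest means belonged to Rpl7l1 (59.8 ± 8.89), Rps15a (33.3 ± 6.81), Rps4l (10.5 ± 4.38), Rpl32l (4.64 ± 3.06) and Rpl10l (3.09 ± 2.81). All of these except Rps15a carry the names of paralogues. The low value of Rps15a went with an effective length of 4927 bases implied by its counts and FPKM, against a median of 531 over the members. The stalk mRNAs stood at 1158 ± 332 (Rplp0), 4753 ± 838 (Rplp1) and 2283 ± 450 (Rplp2).

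**Figure D1:**
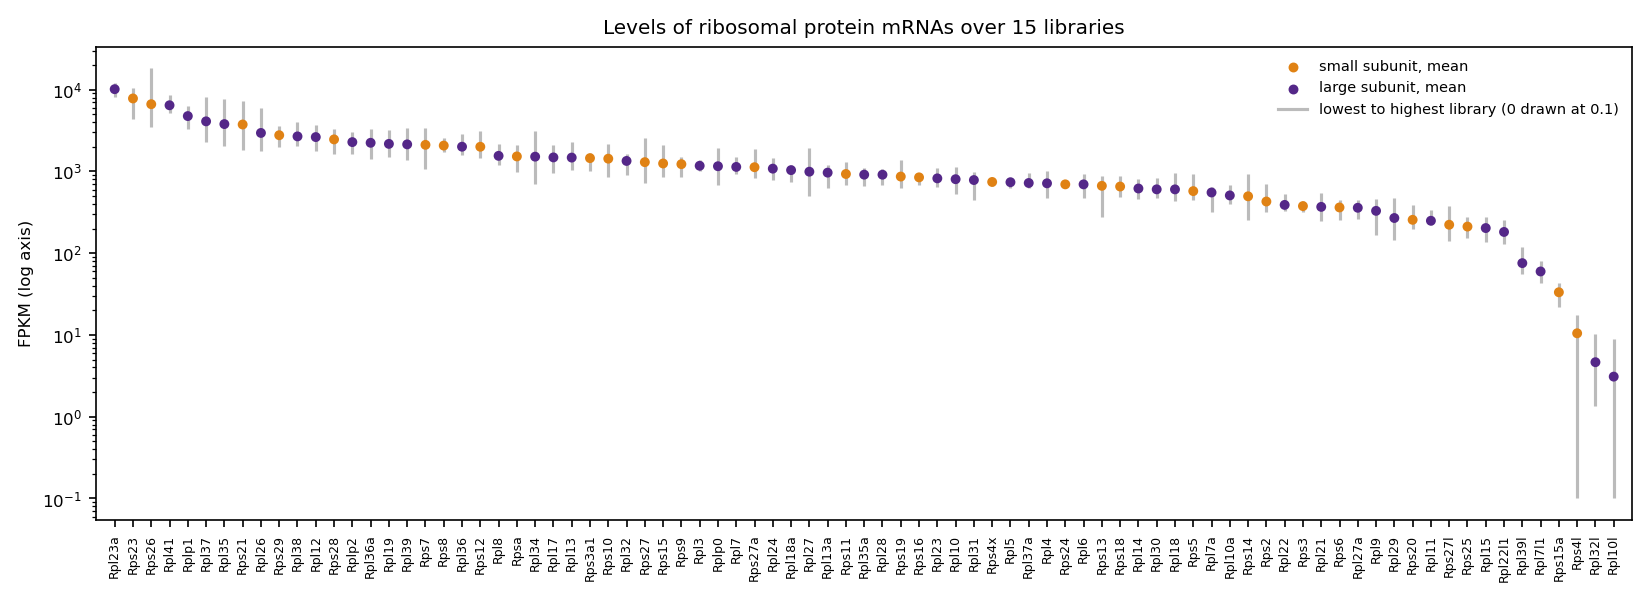
Mean FPKM (log axis) of 83 of the 84 ribosomal protein mRNAs that passed the filter, ordered by mean; grey bars run from the lowest to the highest of 15 libraries, and a library at 0 is drawn at 0.1. Orange points are small-subunit and purple points large-subunit members; 77 lie above 100, and Rps4l, Rpl32l and Rpl10l lie at the bottom.

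Several members carry the names of paralogues of another member. By FPKM, Rpl22l1 was the most abundant beside its partner, at 47.1% ± 9.62 (SD, n = 15) of the value of Rpl22. Rps27l stood at 18.8% ± 9.67 of Rps27, with 1 library at 52.2%. Rpl7l1 stood at 5.40% ± 1.19 of Rpl7, and Rpl39l, known from testis, at 3.70% ± 0.90 of Rpl39. The remaining paralogues, Rps4l, Rpl10l, Rpl32l and the striated-muscle form Rpl3l, lay between 0.0226% and 1.41% of their partners. Rps4l and Rpl10l each had libraries at 0 counts. These SDs pool the 4 groups, and the percentages rest on the length used in FPKM. Counts, which are not scaled to length, gave another order. In IgG medium library 1, Rpl22l1 had 60.8 TMM-scaled CPM beside 704 for Rpl22, and Rps27l had 47.0 beside 152 for Rps27.

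Totals ran from 939139 (IgG medium 2) to 5713913 counts per library. Ribosomal protein mRNAs took between 4.99% and 6.11% of them, and the 10 most abundant members held 35.7% of the members' counts. All markers examined, stromal or other, had counts in at least 1 library. The sum of the 9 stromal markers lay between 10426 and 16440 CPM, led by Col1a1 (5468.5 to 9800 CPM). Among them Thy1, Vcam1 and Ly6a reached at most 15.7, 46.9 and 67.1 CPM. The sums for blood, endothelial and epithelial markers reached at most 13.5, 38.2 and 69.3 CPM. Between the Arid5a medium and Arid5a IL-17 libraries these sums ran from 9.08 to 13.5 and from 4.57 to 7.61 CPM for blood, from 26.4 to 34.9 and from 6.35 to 30.99 for endothelial and from 14.98 to 33.4 and from 7.30 to 20.6 for epithelial markers, and their part in the results was not tested. Fragment length, which the ratio of counts to FPKM implies up to a constant, set Arid5a IL-17 libraries 1 to 3 apart from all others. Above the shortest library, it was 112, 136, 85.5 and 59.8 bases in Arid5a IL-17 libraries 1 to 4, 7.72 to 22.3 bases in Arid5a medium, 10.1 to 55.3 in IgG medium and 0 to 72.0 in IgG IL-17.

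Summed over the members, the level was 56664 ± 5056 TMM-scaled CPM in IgG medium (SD, n = 4), 51853 ± 5211 in Arid5a medium (n = 4), 54177 ± 5558 in IgG IL-17 (n = 3) and 62839 ± 4649 in Arid5a IL-17 (n = 4). TMM scaling sets libraries level on the bulk of their genes. The 4 Arid5a IL-17 libraries (58621 to 69182) lay above the 4 Arid5a medium libraries (46533 to 57759). As a share of all counts, the same groups overlapped, at 5.84% ± 0.30 and 5.68% ± 0.31, with 5.50% ± 0.27 in IgG medium and 5.45% ± 0.42 in IgG IL-17. The TMM factors were 1.04 to 1.15 in Arid5a medium and 0.883 to 0.919 in Arid5a IL-17 libraries 1 to 3, while that of Arid5a IL-17 library 4 was 1.04. The ratio of small- to large-subunit CPM stayed between 0.565 and 0.651 over all libraries.

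**Figure D2:**
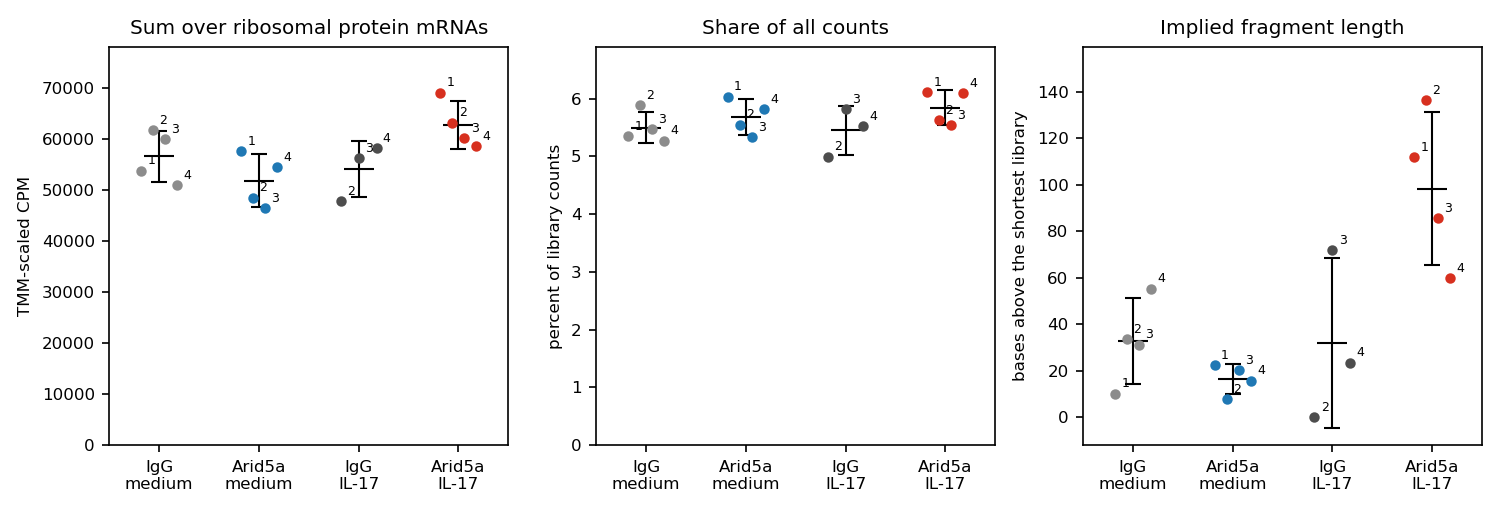
Each point is 1 library with its replicate number, with a bar for the group mean and SD. The panels give the members' summed TMM-scaled CPM, their percent of all counts, and the fragment length above the shortest library in bases; the Arid5a IL-17 libraries lie above the Arid5a medium libraries in the left and right panels and overlap them in the middle.

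The Arid5a precipitate was first compared with IgG in medium, the comparison that addresses binding in resting cells. None of the 84 members was called, that is, had an adjusted p below 0.05 in the edgeR quasi-likelihood fit over all 17835 genes, where 0.0561% of genes were called higher and 0.572% lower. At an unadjusted p below 0.05, 6 members were higher and 15 lower, where 4.5% and 8.28% of all genes were. Of the 5376 well-expressed genes, 70 were higher and 1213 lower at that threshold. DESeq2 called 7 members (4 higher, 3 lower) beside 0.118% of all genes higher and 1.83% lower, and limma voom 1, lower, beside 0.662% of all genes lower. The members' median log2 fold was -0.08, against -0.19 for well-expressed genes and 0.04 for all genes tested. The gene with the smallest p was Rpl23, a large-subunit protein that also binds Mdm2. Its level was 724, 996, 921 and 805 TMM-scaled CPM in the IgG libraries and 738, 515, 493 and 622 in the Arid5a libraries. The groups overlapped through Arid5a library 1, and the log2 fold was -0.54 ± 0.14 (SE, adjusted p = 0.0547).

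The well-expressed members with the largest log2 folds in either direction in medium were also not called in the edgeR fit with TMM factors. On the high side were Rpl31 (0.45 ± 0.15), Rpl12 (0.40 ± 0.13), Rpl7a (0.39 ± 0.14) and Rpl17 (0.39 ± 0.13), with adjusted p between 0.162 and 0.188. On the low side were Rpl37 (-0.82 ± 0.30), Rpl22l1 (-0.66 ± 0.20), Rplp0 (-0.57 ± 0.21) and Rpl39l (-0.54 ± 0.21), with adjusted p between 0.113 and 0.269. The calls depended on scaling: with library totals Rpl12 (0.56 ± 0.11) and Rpl17 (0.56 ± 0.12) were called higher (edgeR adjusted p = 0.0420 for each). Under that scaling 0.0449% of all genes were called higher and 0.0280% lower. Rpl22l1, the paralogue of Rpl22, had 60.8, 78.3, 64.3 and 51.6 CPM in the IgG libraries and 42.2, 34.9, 44.6 and 37.1 in the Arid5a libraries, and the groups did not overlap. Such non-overlap occurred in 3 members in each direction, beside 5% of all genes higher and 4.04% lower. Leaving out IgG medium library 1 gave 6 calls, 2 higher and 4 lower, beside 0.209% of all genes higher and 1.77% lower, and in each of the other 14 fits with a library left out there were 0 or 1.

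With IL-17, the Arid5a precipitate again had no called member against IgG, where 0.0561% of all genes were called higher and 0.0112% lower. In that comparison 23 of the 84 members were higher and 0 lower at an unadjusted p below 0.05, where 4.74% and 4.21% of all genes were. Of the 5376 well-expressed genes, 687 were higher and 70 lower at that threshold. DESeq2 called 3 members and limma voom 15, all higher, beside 0.235% and 1.52% of all genes. Leaving out IgG IL-17 library 3 or Arid5a IL-17 library 4 gave 4 calls, all higher, beside 0.127% and 0.239% of all genes. The median log2 fold was 0.15 in the members, 0.15 in well-expressed genes and -0.01 in all genes tested. On log2(FPKM + 1) the members lay above well-expressed genes, at 0.25 against 0.08, and without Arid5a IL-17 libraries 1, 2 and 3, an alternative added after seeing the data, at 0.05 against -0.08. The part of fragment length in the FPKM medians was not tested. The highest folds were those of Rpl27 (0.87 ± 0.29, adjusted p = 0.395), Rps26 (0.77 ± 0.18, adjusted p = 0.0975), Rps7 (0.77 ± 0.22, adjusted p = 0.300) and Rpl35 (0.74 ± 0.17, adjusted p = 0.0975). The lowest among well-expressed members were those of Rps13 (-0.42 ± 0.23), Rpl30 (-0.35 ± 0.18), Rps18 (-0.29 ± 0.19) and Rps15a (-0.29 ± 0.17).

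The difference between those antibody contrasts, the interaction of antibody and IL-17, was called for 1 member, Rpl35, higher, where 0.869% of genes were called higher and 0.107% lower. Rpl35 encodes a large-subunit protein at the exit of the nascent peptide tunnel. It stood at 595, 1176, 965 and 799 TMM-scaled CPM in IgG medium and at 671, 649, 604 and 637 in Arid5a medium. With IL-17 it stood at 548, 804 and 725 in IgG libraries 2 to 4 and at 1361, 1328, 1014 and 911 in Arid5a libraries 1 to 4. The Arid5a IL-17 libraries lay above all Arid5a medium and all IgG IL-17 libraries, and the spread in IgG medium was the widest. The interaction was 1.20 ± 0.24 on the log2 scale (SE, adjusted p = 0.0150).

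The Rpl35 call was lost with library totals, upper-quartile factors and factors from well-expressed genes, in both fits on log2 FPKM, and in 6 of 15 fits with a library left out, those without IgG medium 3, Arid5a medium 2 or 3, IgG IL-17 2, or Arid5a IL-17 1 or 2. It was also lost in the 2 fits added after seeing the data: with the implied fragment length as a covariate the interaction was 0.55 ± 0.29 (adjusted p = 0.989), and without Arid5a IL-17 libraries 1, 2 and 3 it was 0.85 ± 0.28 (adjusted p = 1.00). Without IgG IL-17 3 or Arid5a IL-17 4 there were 7 calls, without IgG medium 1 there were 6 (2 of them lower), without Arid5a medium 1 there were 3 and without IgG medium 2 or 4 there were 2, where 0.723% to 2.88% of all genes were called higher. The gene model of Rpl35 overlaps that of Wdr38. Over the members, the median interaction was 0.23, below the 0.34 of well-expressed genes, and 21 were higher and 3 lower at an unadjusted p below 0.05, where 9.51% and 6.77% of all genes were. On log2(FPKM + 1) the order of the medians turned, with 0.20 in the members and 0.09 in well-expressed genes, and without Arid5a IL-17 libraries 1, 2 and 3 both were near 0.1 (0.107 and 0.101). The part of fragment length in the FPKM medians was not tested. The other high values, not called, were those of Rplp0, the highest of all members (1.22 ± 0.31, adjusted p = 0.0631), Rpl27 (1.15 ± 0.39, adjusted p = 0.153) and Rps7 (1.00 ± 0.30, adjusted p = 0.108). The lowest among well-expressed members were those of Rps13 (-0.76 ± 0.32), Rpl30 (-0.50 ± 0.25), Rpl31 (-0.48 ± 0.21) and Rpl7a (-0.42 ± 0.20).

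Within the Arid5a precipitate, 21 members rose with IL-17 against medium and 0 fell, which is 25% of the 84. Of all genes tested 4.84% were called higher and 0.813% lower, and of well-expressed genes 15.5% were called higher. The groups did not overlap in 30 members (35.7%), all higher, beside 10.7% of all genes and 29% of well-expressed genes. The members' median log2 fold was 0.22, below the 0.30 of well-expressed genes and above the -0.12 of all genes tested. On log2(FPKM + 1) the order of the first 2 turned, with 0.23 in the members and 0.11 in well-expressed genes, and limma called 5 members, all higher, beside 0.477% of all genes. The length used in FPKM changes with the implied fragment length. That was 59.8 to 136 bases above the shortest library in Arid5a IL-17 and 7.72 to 22.3 in Arid5a medium. Its part in this turn was not tested. The 21 members called from the counts were 5 of 33 small-subunit and 16 of 51 large-subunit genes.

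These 21 calls did not hold in 2 fits added after seeing the data. With the implied fragment length as a covariate, or without Arid5a IL-17 libraries 1, 2 and 3, which leaves 1 library in that group, 0 members were called, and of all genes 0.0505% and 0.0596% were called higher in place of 4.84%. The member median was then 0.20 and 0.13, above the 0.17 and 0.06 of well-expressed genes. The part of fragment length in the rise was not tested beyond this. Leaving out a single library gave 11 calls without Arid5a IL-17 library 2, 13 without Arid5a IL-17 library 1 or Arid5a medium library 3, and 16 or more otherwise; in those first 3 fits 1.66% to 2.19% of all genes were called higher.

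Rps26, whose protein lies at the mRNA exit channel of the small subunit, had 952, 1183, 1018 and 1061 TMM-scaled CPM in Arid5a medium and 2465, 3077, 1985 and 1726 in Arid5a IL-17. In the IgG precipitate it had 1034, 939, 929 and 963 in medium and 956, 1900.5 and 1207 with IL-17. Every Arid5a IL-17 library lay above every Arid5a medium library, while in the IgG precipitate IL-17 library 2 lay within the medium range. The log2 fold in the Arid5a precipitate was 1.13 ± 0.16 (SE, adjusted p = 6.42e-05), and 0.31 ± 0.21 with fragment length in the model.

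Rpl26, a large-subunit protein that also binds the mRNA of p53, had 767, 648, 702 and 821 CPM in Arid5a medium and 1437, 1585, 1156 and 1167 in Arid5a IL-17. The log2 fold was 0.86 ± 0.13 (adjusted p = 5.91e-05), and 0.41 ± 0.19 with fragment length in the model. Rpl34 had 266, 254, 231 and 337 CPM in Arid5a medium and 665, 683, 562 and 463 in Arid5a IL-17. In both genes the Arid5a groups did not overlap. The log2 fold of Rpl34 was 1.12 ± 0.20 (adjusted p = 0.000875), and 0.20 ± 0.24 with fragment length in the model. In the IgG IL-17 libraries Rpl34 was spread from 216 to 580 CPM.

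Rpl21 had 476, 416, 492 and 574 CPM in Arid5a medium and 909, 937, 823 and 724 in Arid5a IL-17, a log2 fold of 0.79 ± 0.14 (adjusted p = 0.000274). Rps27a, made as a fusion of ubiquitin with a small-subunit protein, had 430, 435, 446 and 468 in Arid5a medium and 938, 884, 724 and 617 in Arid5a IL-17, a log2 fold of 0.83 ± 0.14 (adjusted p = 0.000299). Rpl35 rose by 0.85 ± 0.16 (adjusted p = 0.00106) on the values given above. In each of these genes Arid5a IL-17 library 4, the library of that group with the shortest fragments, was the lowest of the group.

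These genes, Rpl21, Rpl26, Rpl34, Rpl35, Rps26 and Rps27a, were the 6 that stayed called under all 5 scalings of the counts, namely TMM, upper quartile, library totals, DESeq2 size factors and TMM factors from well-expressed genes. They also stayed called when any single library was left out. With factors from well-expressed genes the log2 folds were smaller, 0.81 ± 0.16 for Rps26, 0.81 ± 0.19 for Rpl34, 0.56 ± 0.11 for Rpl26, 0.53 ± 0.14 for Rpl35, 0.51 ± 0.12 for Rps27a and 0.49 ± 0.11 for Rpl21. Under that scaling the member median was -0.08 in place of 0.22, and 6 members were called higher and 4 lower, beside 0.645% and 1.16% of all genes.

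The 4 members lower with factors from well-expressed genes were Rpl41 (-0.58 ± 0.12), Rps15a (-0.55 ± 0.15), Rps29 (-0.53 ± 0.11) and Rpl38 (-0.45 ± 0.11), with adjusted p of 0.00804, 0.0443, 0.0131 and 0.0375. With library totals 7 were called higher and 2 lower, Rpl41 and Rps29, beside 0.903% and 0.807% of all genes. Rpl41, which encodes a very short protein, had 1558, 2000, 1336 and 1430 TMM-scaled CPM in Arid5a medium and 1460, 1280, 1252 and 1237 in Arid5a IL-17. Under TMM these groups overlapped, and the log2 fold was -0.27 ± 0.13 (adjusted p = 0.221). The lowest fold under TMM among well-expressed members was that of Rps18 (-0.50 ± 0.18, adjusted p = 0.0969). The pseudogene Rps18-ps4 had a median count of 191% of that of Rps18, and adding its counts to Rps18 gave 0.02.

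The other named members called in the Arid5a precipitate were Rpl27 (1.21 ± 0.26, adjusted p = 0.0140), Rpl29 (0.91 ± 0.18, adjusted p = 0.00146), Rps14 (0.74 ± 0.16, adjusted p = 0.00502), Rpl4 (0.60 ± 0.12, adjusted p = 0.00219) and Rpsa (0.54 ± 0.12, adjusted p = 0.00618). Rps21, Rpl6, Rpl19, Rpl13, Rpl15, Rpl39, Rpl8, Rpl13a, Rpl7 and Rpl36a completed the 21. Rpl27 had 413, 259, 309 and 391 CPM in Arid5a medium and 926, 930, 738 and 584 in Arid5a IL-17, without overlap, and its log2 fold with fragment length in the model was 0.02 ± 0.23. Rpsa had 2531, 2228, 2034 and 2325 in Arid5a medium and 3715, 3506, 2909 and 3160 in Arid5a IL-17, again without overlap. Of the stalk mRNAs, Rplp0 had a log2 fold of 0.48 ± 0.21, Rplp1 of -0.09 ± 0.17 and Rplp2 of 0.15 ± 0.13, none of them called.

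**Figure D3:**
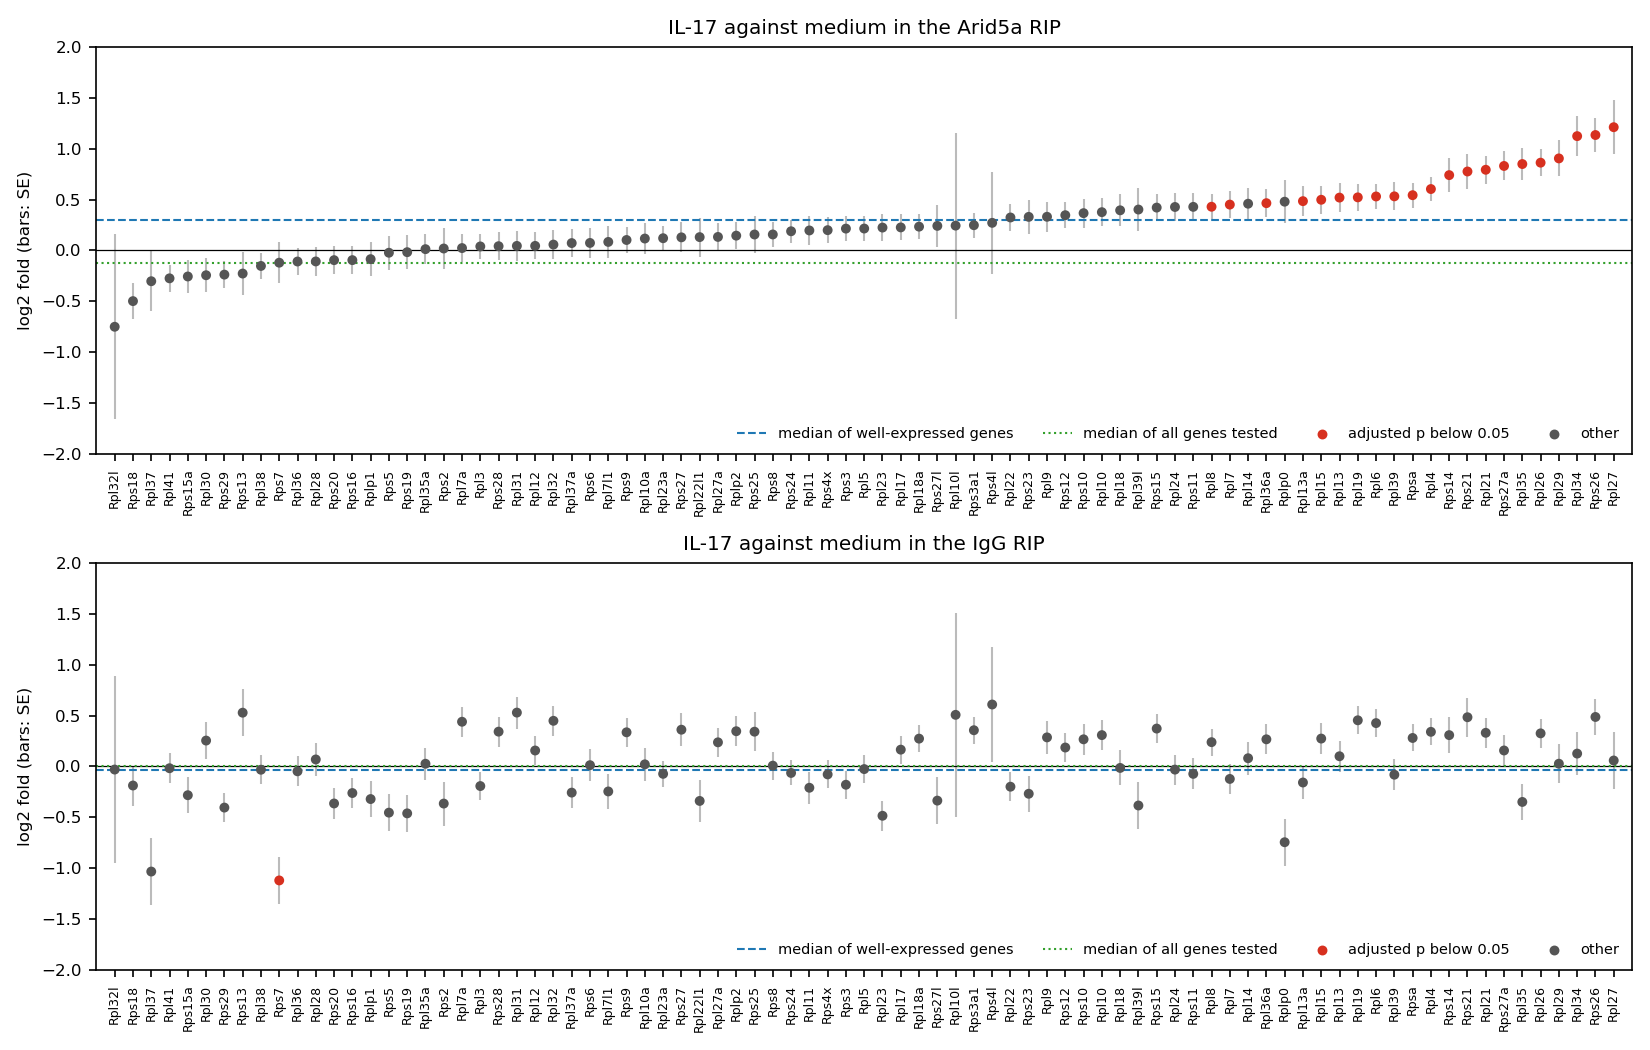
Log2 fold and SE of IL-17 against medium for 83 of the 84 ribosomal protein mRNAs in the Arid5a RIP (top) and the IgG RIP (bottom), both ordered by the fold in the top panel; red points have an adjusted p below 0.05, the dashed line is the median of well-expressed genes and the dotted line that of all genes tested. In the top panel 21 points are red and the median of 0.22 over all 84 lies below the dashed line at 0.30; in the bottom panel Rps7 alone is red.

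The calls in the Arid5a precipitate were also counted by effective length, taken from counts and FPKM. Of all genes 4.84% and of well-expressed genes 15.5% were called higher in that comparison. The 42 members shorter than the median of 531 bases had a median log2 fold of 0.13 and 9 calls, and the 42 longer members had 0.23 and 12 calls. Among members with a promoter window, 10 of 26 with CCGGAAG and 5 of 37 without it were called, with median log2 folds of 0.25 and 0.22. A C at the start with 4 or more C or T was present in 14, of which 3 were called, and 12 of the 49 without it were called. For a C with 7 or more C or T near the start, 9 of 35 with it and 6 of 28 without it were called. For the hexamers these were 7 of 27 and 8 of 36, for AAGATGGC 1 of 6 and 14 of 57, and for TATAAA 0 of 1 and 15 of 62. These counts are descriptive, and no test was made of them.

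Within the IgG precipitate, 1 member was called with IL-17 against medium, Rps7, which fell; 0.258% of all genes were called higher and 0.235% lower. Rps7, a small-subunit protein that also binds Mdm2, had 1378, 1933, 2792 and 1792 TMM-scaled CPM in IgG medium and 811, 937 and 978 in IgG IL-17. The groups did not overlap, and the log2 fold was -1.12 ± 0.23 (adjusted p = 0.0272). In the Arid5a precipitate Rps7 had 2383, 1575, 1142 and 1626 in medium and 1773, 1261, 1331 and 1825 with IL-17, which overlap. The call was lost without IgG medium 2, Arid5a medium 2, any of the IgG IL-17 libraries or Arid5a IL-17 4, and leaving out IgG medium library 1 gave 6 called members, 3 higher and 3 lower, beside 0.480% and 0.971% of all genes. It was also lost with library totals (adjusted p = 0.0654), upper-quartile factors (0.0865), factors from well-expressed genes (0.0993), limma voom (0.376), the replicate block (0.0916) and both fits on log2 FPKM (0.0768 and 0.0889), and without Arid5a IL-17 libraries 1, 2 and 3 (0.106), with log2 folds of -1.03 to -1.12. Under the first 3 of these scalings the members called were Rpl19 and Rpl6 instead, both higher, by 0.50 ± 0.11 and 0.47 ± 0.11 with library totals, where 0.381% of all genes were called higher and 0.235% lower.

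At an unadjusted p below 0.05, 20 members were higher and 8 lower in the IgG precipitate, where 5.03% and 6.12% of all genes were. Of the 5376 well-expressed genes, 352 were higher and 659 lower at that threshold. The members' median log2 fold was 0.02, against -0.04 in well-expressed genes and 0.00 in all genes tested. The low end also held Rpl37 (-1.03 ± 0.33), Rplp0 (-0.74 ± 0.23) and Rpl23 (-0.48 ± 0.15), with adjusted p of 0.235, 0.190 and 0.150. The high end among well-expressed members held Rpl31 (0.53 ± 0.16), Rps13 (0.53 ± 0.23), Rps26 (0.49 ± 0.18) and Rps21 (0.48 ± 0.19), with adjusted p between 0.133 and 0.396. Rplp0 had 1050, 2355, 1904 and 1212 CPM in IgG medium and 773, 1151 and 990 in IgG IL-17. IgG medium libraries 2 and 3 were high for Rplp0, Rpl23 and Rpl37, and these 3 members had in common that IgG medium library 1 was the lowest of its group.

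**Figure D4:**
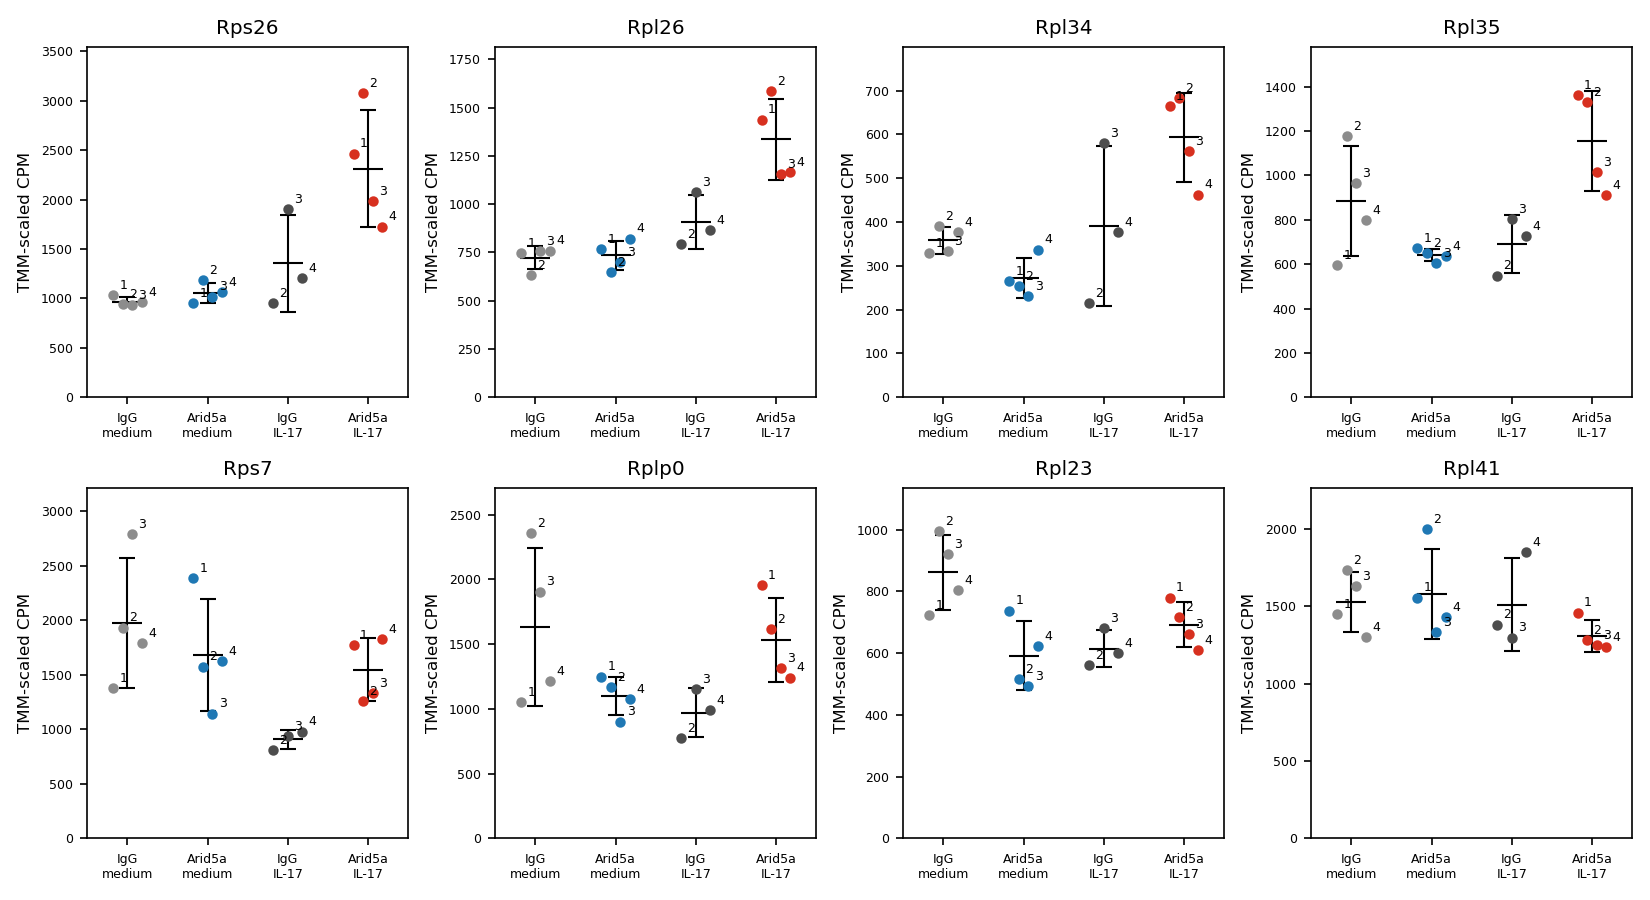
TMM-scaled CPM of 8 ribosomal protein mRNAs in each library (points, with the replicate number) by group, with a bar for the mean and SD; every axis starts at 0. Rps26, Rpl26, Rpl34 and Rpl35 have their highest mean in Arid5a IL-17, Rps7 has its lowest in IgG IL-17, Rplp0 and Rpl23 are spread in IgG medium, and Rpl41 overlaps in all groups.

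Genes of related function were counted in the same fits. In the Arid5a precipitate with IL-17 against medium, 4.84% of all genes and 15.5% of well-expressed genes were called higher, and 0.813% of all genes lower. Beside this, 9 of 25 measured other TOP mRNAs rose and 0 fell, with a median log2 fold of 0.34. The 3 with the smallest p were Tpt1 (0.67 ± 0.12), the small nucleolar RNA host Snhg5 (1.48 ± 0.27) and the initiation factor subunit Eif3e (0.77 ± 0.14). Of 60 ribosome biogenesis factors 21 rose and 0 fell, with a median of 0.56, led by Gnl3 (1.10 ± 0.16), Wdr43 (0.95 ± 0.16) and Gtpbp4 (0.95 ± 0.16). Of 78 mitochondrial ribosomal protein mRNAs 3 were called higher, Mrpl30, Mrps10 and Mrpl37, and 0 lower, with a median of 0.28. That is no larger a share than among all genes. The median of the cytosolic members, 0.22, was the lowest of these lists. In the fits with fragment length as a covariate or without Arid5a IL-17 libraries 1, 2 and 3, 0 genes of these lists were called, and the mitochondrial list had the lowest median (0.05 and 0.03). With factors from well-expressed genes 4 other TOP mRNAs, 4 biogenesis factors and 0 mitochondrial ribosomal protein mRNAs were called higher, beside 0.645% of all genes.

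For Arid5a against IgG in medium, 2 other TOP mRNAs (Npm1, -0.63 ± 0.14, and Eif3e, -0.58 ± 0.14) and 2 mitochondrial ribosomal protein mRNAs (Mrps21, -0.87 ± 0.20, and Mrps14, -0.74 ± 0.18) were called lower. Of all genes 0.572% were called lower in that comparison and 0.0561% higher. Nsa2, a factor of large-subunit assembly, was the only gene of these lists called higher there, by 0.71 ± 0.16 (adjusted p = 0.0280), and with IL-17 it was higher by 1.06 ± 0.17 (adjusted p = 0.00700). Its means were 218 ± 36.2 and 356 ± 56.4 CPM in IgG and Arid5a medium (n = 4 each) and 219.6 ± 1.37 (n = 3) and 459 ± 117 (n = 4) with IL-17. With factors from well-expressed genes 0% of all genes were called in either antibody comparison, so all these calls were lost. The Nsa2 call in medium was also lost without IgG medium 2 or 3, or Arid5a medium 2, 3 or 4. In each of those fits 0% of all genes were called higher. The interaction was called for Eif3e, Npm1, Mrpl42 and Wdr43, all higher, beside 0.869% of all genes. These 4 calls were lost with library totals, upper-quartile factors, factors from well-expressed genes, either FPKM fit or fragment length as a covariate. They were also lost without Arid5a medium 3 or Arid5a IL-17 1. In each of these fits 0% of all genes were called higher. In the IgG precipitate Mrps21 was called with IL-17, lower (-0.97 ± 0.22), beside 0.235% of all genes.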

How the data were processed

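RNA co-precipitated with Arid5a or mouse IgG2b antibody was measured in 15 libraries of 4 groups. The authors deposited expected counts per gene and FPKM values. The submitters' processing notes name STAR 2.7.9, RSEM 1.3.1, DESeq2 1.36.0, R 4.3.0 and mm10; what each did, the gene annotation and the strand used in counting are not given in the sources used here. Deposited expected counts were rounded and fitted in R 4.3.3 with edgeR 4.0.16 (filterByExpr, TMM factors, robust quasi-likelihood, group means of all libraries, Benjamini-Hochberg over 17835 genes, threshold 0.05); the biological coefficient of variation was 0.341. Alternatives used limma 3.58.1, DESeq2 1.42.0 and deposited FPKM on log2(FPKM + 1) or log2(FPKM + 0.1). Every p or adjusted p is edgeR's unless another tool is named. Libraries of a group were numbered, with nothing on separate cultures, so p-values measure the spread between these samples, which may be technical. Totals of 939139 to 5713913 counts limit precision for low genes.

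The members and lists were chosen with earlier results of these data known. Named genes were, per comparison, up to 10 called members by smallest p and the 4 highest and 4 lowest folds among well-expressed members; the 5 highest and lowest by FPKM; paralogues, stalk genes and Rpsa; up to 3 called genes of each other list; and Nsa2. Other members were named after their values were seen. Gene models of 43 members overlap another, 18 had non-whole counts in 5 or more libraries, and 9 pseudogene rows were left out, so reads may be shared between copies. The fit was tested on simulated counts. Coordinates and sequences are RefSeq's (GRCm38.p6); promoter sequences matched 64 members by symbol. 1 member is not reported here by name or in the plots labelled by gene; it stays in the counts and medians over members.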

Additional observations from a re-analysis of the deposited data

Results flagged for a closer look

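In groups of 4 libraries, 3 values stood apart from the rest of their group among 75 groups examined, where chance alone marks about 5% of groups. The ratio of small- to large-subunit counts was 0.634 in Arid5a IL-17 library 3 and 0.644 to 0.646 in the other libraries of that group. Rpl26 was 632 TMM-scaled CPM in IgG medium library 2, the shallowest library, and 747 to 760 in the others. Rpl39 was 519 CPM in the same library and 425 to 439 in the others. The effect of Arid5a against IgG on Rpl35 differed between IL-17 and medium by 1.20 on the log2 scale in the edgeR interaction (SE 0.24, adjusted p = 0.0150).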

How the results depend on the processing

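The 21 members called in the Arid5a RIP with IL-17 against medium, all higher, stayed within 1.5 times that count with DESeq2 (18), without a filter (23), with the strict filter (17), with only the libraries compared (29, of them 1 lower) and with pseudogene counts added (21). Calls numbered 9 with library totals, 10 with upper-quartile factors or factors from well-expressed genes, 45 with limma voom (41 higher, 4 lower), 5 on log2(FPKM + 1), 2 on log2(FPKM + 0.1), 0 with fragment length as a covariate and 0 with Arid5a IL-17 libraries 1 to 3 left out together; 11 to 30 were called with each library left out in turn. The last 2 alternatives were chosen after seeing the data, and the cause of the lost calls was not tested. Of all genes, limma voom called 18.9% higher and 23.1% lower, and the fit with only the libraries compared 12.1% and 6.74%. DESeq2 called 4.51% and 3.16%, the fit without a filter 3.82% and 0.627%, and the strict filter 4.21% and 1.37%. Upper-quartile factors gave 1.13% and 0.667%, and log2(FPKM + 0.1) gave 0.359% and 0.0617%. For Arid5a against IgG in medium, 2 members were called with library totals (Rpl12 and Rpl17, both higher), 7 with DESeq2 and 1 with limma voom, and 0 to 6 with a library left out. With IL-17, 3 were called with DESeq2, 15 with limma voom and 2 without a filter, and 0 to 4 with a library left out. Without a filter 0.101% of all genes were called higher there and 0.00842% lower. For the interaction 0 were called with library totals, upper-quartile factors, factors from well-expressed genes, either FPKM fit, the fragment covariate or libraries 1 to 3 left out, 2 with DESeq2 and 12 with limma voom, and 0 to 7 with a library left out. In the IgG RIP, where 1 was called lower, 2 others were called, both higher, with library totals, upper-quartile factors or factors from well-expressed genes, 6 with DESeq2, 0 with limma voom, the replicate block, either FPKM fit or libraries 1 to 3 left out, and 0 to 6 with a library left out. Scaling moved the member medians: with library totals, upper-quartile factors and factors from well-expressed genes they were 0.097, 0.074 and 0.10 for Arid5a against IgG in medium, -0.022, 0.0095 and -0.085 for IL-17 in the Arid5a RIP and -0.068, -0.031 and -0.11 for the interaction. With factors from well-expressed genes the median was -0.0046 for Arid5a against IgG with IL-17, and in medium it was 0.067 in either FPKM fit. Replicate numbers did not pair the libraries: the 21 same-numbered pairs had r of -0.13 to 0.19, with 1 above 0.1, and 2 of 15 libraries correlated best with their own number; with the replicate block 18 members were called in the Arid5a RIP, 1 in the interaction, and 0 in the antibody comparisons. Of 1355 alternative values of 47 single-gene results, 1217 kept direction and side of the threshold, 78 lost and 47 gained a call, and 13 changed sign, none of them of a called result. Of the called members outside these 47, Rpl13 in the Arid5a RIP changed sign with the fragment covariate (-0.10 ± 0.20). Those for Arid5a against IgG with IL-17 were Rps13 (0.068), Rpl30 (0.25), Rps18 (0.43), Rps15a (0.050) and Rpl27 (-6.07e-05) with the fragment covariate, Rpl30 (0.020) and Rps18 (0.054) with libraries 1 to 3 left out, Rps18 (0.10) with pseudogene counts, and Rps15a, which ran from -0.50 to 0.015 with a library left out. The others were Rpl30 (0.24) in the interaction and Rps18 (0.35) and Rps15a (0.14) in the Arid5a RIP with the fragment covariate, and Rps18 (0.022) there with pseudogene counts. Members with few counts, such as Rpl10l and Rpl32l, had standard errors of 0.89 or more, so changes in them were not detectable at this depth.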

Other observations

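Small nucleolar RNAs lie in introns of ribosomal protein genes and guide modification of ribosomal RNA. Of 35 such gene models within the member genes, 10 passed the filter. With IL-17 against medium all 10 had negative log2 folds in the Arid5a RIP, with a median of -1.55, and all 10 in the IgG RIP, with a median of -1.17. In the Arid5a RIP 1 was called, Snora21 within Rpl23 (-1.78 ± 0.46, edgeR adjusted p = 0.0162), at 21.6 ± 6.31 CPM in medium and 6.38 ± 4.67 with IL-17 (SD, n = 4 each). Of all genes 0.813% were called lower there. Implied fragments were 59.8 to 136 bases above the shortest library in Arid5a IL-17 and 7.72 to 22.3 in Arid5a medium. The part of fragment length in the folds of these short RNAs was not tested. Snord15b within Rps3, the most abundant, had 925 ± 235 CPM in Arid5a medium and 408 ± 208 in Arid5a IL-17 (edgeR adjusted p = 0.0644). In the IgG RIP 3 were lower at an unadjusted edgeR p below 0.05, where 6.12% of all genes were, and the lowest adjusted p was 0.248. Rps3 itself had log2 folds of 0.22 ± 0.13 in the Arid5a RIP and -0.18 ± 0.14 in the IgG RIP. Intronic reads of the host cannot be told from them in these counts.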
